A study of Homo sapiens and Mus musculus with 74 samples.

Results

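The 10 proximal tubule solute transporters Slc34a1, Slc5a2, Slc5a12, Slc13a3, Slc22a6, Slc22a8, Slc22a12, Slc6a19, Slc3a1 and Slc7a9 were followed in mouse kidney with and without the ribosomal protein Rpl41. They were chosen by name, as 10 of the 55174 genes in the count table, and each was read from the transcript that encodes its longest protein. The study deleted the whole coding sequence of Rpl41 with CRISPR-Cas9 in C57BL/6J zygotes, and compared homozygous Rpl41 -/- (KO) mice with wild-type (WT) mice, whose tissues came from 10-week-old males. Rpl41 is a very short, highly basic ribosomal protein, and the deletion is not limited to the kidney or to one cell type. Kidney RNA-seq, kidney Ribo-seq, kidney disome-seq, brain RNA-seq and brain Ribo-seq each had 3 WT and 3 KO libraries. Ribo-seq counts the RNA fragments protected by single ribosomes (ribosome-protected fragments, RPFs), and disome-seq counts the longer fragments protected by a pair of ribosomes that touch.

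The proximal tubule is the first stretch of the nephron after the glomerulus and recovers most of the filtered sodium, glucose, phosphate and amino acids. Its cells carry sodium-coupled carriers in the apical brush border, which draw solutes from the filtrate, and other carriers in the basolateral membrane, which exchange them with blood. Organic anions, drugs among them, run the other way and are taken up from blood for secretion into urine.

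Slc34a1 is the main apical sodium-phosphate cotransporter, Slc5a2 the sodium-glucose cotransporter of the early tubule (SGLT2), Slc5a12 a sodium-coupled lactate carrier and Slc13a3 a basolateral sodium-dicarboxylate carrier. Slc22a6 (OAT1) and Slc22a8 (OAT3) are basolateral organic anion transporters, and Slc22a12 (URAT1) is an apical urate exchanger. Slc6a19 carries neutral amino acids across the brush border, and Slc3a1 and Slc7a9 form the heteromeric carrier for cystine and dibasic amino acids that is defective in cystinuria. On GRCm38, the build of GENCODE M21, the genes lie at chr13:55398187-55415592 (Slc34a1), chr7:128265657-128272430 (Slc5a2), chr2:110597298-110647779 (Slc5a12), chr2:165405028-165473230 (Slc13a3), chr19:8618039-8628299 (Slc22a6), chr19:8591254-8611835 (Slc22a8), chr19:6535845-6543032 (Slc22a12), chr13:73679745-73704865 (Slc6a19), chr17:85028376-85064236 (Slc3a1) and chr7:35448796-35466036 (Slc7a9). Their proteins ranged from 487 amino acids for Slc7a9 to 685 for Slc3a1, and their transcripts had between 10 and 15 exons.

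The sequence around a start codon is known to bear on initiation, so the 30 bases around the start codons of the members on which the results turn are given from GENCODE M21 transcripts, 5′ to 3′, with the ATG in capitals. On GRCm38 these start codons lie in coding exons at chr2:110597602-110597604 on the plus strand (Slc5a12), chr19:6542750-6542752 on the minus strand (Slc22a12), chr13:73700631-73700633 on the minus strand (Slc6a19), chr17:85028432-85028434 on the plus strand (Slc3a1) and chr2:165473159-165473161 on the minus strand (Slc13a3). Slc5a12 and Slc22a12 had the most and the fewest footprints per RNA, Slc6a19 and Slc3a1 the largest footprint differences between genotypes, and Slc13a3 the fewest disomes per footprint.
Slc5a12: ccacttccaagcATGagggtgaagaacttt
Slc22a12: caggagaaacccATGgcctttcctgaactc
Slc6a19: ccagcgaccaccATGgtgaggcttgtgctg
Slc3a1: cacagggtagacATGgatgaggacaaaggc
Slc13a3: gcgatcgcgcggATGgcggcgctggcggcg

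Counting the A of the ATG as position 1, with no position 0, a purine stood at position -3 in 7 of the 10 members, against 84.0% of 19921 protein-coding genes. The 3 members without it were Slc22a6, Slc22a12 and Slc13a3. A G followed the ATG at position 4 in 7 of 10 members, against 49.2% of all genes, and both features met in Slc5a2, Slc6a19, Slc3a1 and Slc7a9, 4 of 10 against 41.0%.

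Library totals were 11036643 to 42452425 counts in kidney Ribo-seq, 44998381 to 55077048 in kidney RNA-seq and 1187636 to 3018963 in disome-seq. Levels are given as counts per 1000000 (CPM), scaled by edgeR's TMM factors within each tissue and assay. Rpl41 stood at 75.5 to 143 CPM in the WT kidney RNA libraries and at 0.0534 to 0.195 CPM in the KO libraries (log2 fold change -10.05, SE 0.46, edgeR adjusted p = 2.40e-04), so genotype and label matched in all 6 of them. The labelled tissue matched too: all 15 proximal tubule markers exceeded 1 CPM in every kidney library, and the brain marker list summed to at most 0.975 CPM in kidney RNA. KO kidney RNA libraries 2 and 3 carried a larger share of mitochondrial rRNA (1.76% and 1.67%) than the other 4 (0.436% to 0.962%). Pancreatic enzyme genes summed to 233 CPM in WT kidney Ribo-seq library 1, to 12.6 and 34.5 CPM in the other WT libraries and to 6.72 to 8.47 CPM in the KO libraries. KO kidney Ribo-seq library 1 was the shallowest of its group and held the largest share of member counts.

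In WT kidney the members were abundant, and one of them stood far above the rest. Per kb of transcript, the mean RNA level of Slc34a1 was 485 ± 18.2 CPM (SD, n = 3), rank 24 of 16898 genes. Slc22a12 followed at 271 ± 17.8 CPM per kb, rank 64, and Slc5a2 at 105 ± 19.8, rank 199. The other members lay between 71.0 ± 6.73 (Slc13a3) and 11.4 ± 2.96 (Slc5a12, rank 2111) CPM per kb. In these whole-organ lysates, fewer cells of a type and less RNA per cell cannot be told apart.

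Footprints followed another order. Per kb of coding sequence, Slc34a1 again led with 677 ± 68.5 CPM, rank 14 of 20191 genes. Slc22a6 (171 ± 8.44) and Slc22a12 (168 ± 4.30) came next with overlapping libraries, and then Slc3a1 (150 ± 13.9), Slc22a8 (139 ± 16.4), Slc5a2 (121 ± 15.0) and Slc13a3 (112 ± 7.73), whose neighbours in this order overlapped. Slc6a19 (91.5 ± 12.8), Slc5a12 (65.5 ± 1.97) and Slc7a9 (38.1 ± 2.12) each lay below the member before them in all 3 libraries. Slc22a12, the second most abundant member by RNA, thus ranked 243 by footprints, while Slc5a12, the last by RNA, ranked 861.

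Footprints per RNA therefore differed widely within the group. On the log2 scale, and per unit length, Slc5a12 had 2.56 (SE 0.21) more footprints than RNA in WT kidney, at percentile 91.6 of the 4443 genes with at least 10 counts in every kidney library, and Slc22a12 had -0.69 (SE 0.06), at percentile 5.96. The median gene stood at 1.00. Slc22a8, Slc6a19 and Slc22a6 lay above it at percentiles 81.8, 78.2 and 75.8, whereas Slc5a2 (20.4) and Slc34a1 (28.2) lay below. Slc3a1 and Slc7a9, whose products assemble with each other, stood at percentiles 60.3 and 39.8. The same 2 genes marked the ends of this order in KO kidney, Slc5a12 at percentile 93.2 and Slc22a12 at 7.29.

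Disomes were scarce relative to footprints on all 10 members. Every member had a lower log2 ratio of disomes to footprints than the median gene (0.01) in WT kidney, and 6 of the 10 lay below percentile 5 of the same 4443 genes. Slc13a3 had the lowest ratio, -2.26 (SE 0.15), at percentile 0.36. Slc22a12 (-1.72, SE 0.16) stood at percentile 1.67, Slc7a9 (-1.45) at 3.49, Slc6a19 (-1.41) at 3.92, Slc5a2 (-1.38) at 4.07 and Slc22a6 (-1.32) at 4.68. The remaining members, Slc3a1, Slc5a12, Slc34a1 and Slc22a8, were nearer to the median, at percentiles 14.8, 24.5, 26.0 and 28.0. In KO kidney all 10 were again below the median gene (-0.07), from percentile 0.405 for Slc13a3 to 36.3 for Slc5a12. Disome sums below footprint sums were not particular to the members. In WT kidney the members summed to a median of 3176 CPM by footprints and 1855 by disomes. A list of 31 other apical tubule transporters summed to 3007 and 1748, and 18 other basolateral ones to 3053 and 1761. The sums of 15 proximal tubule markers went the other way, at 8477 and 9198. The ratio needs no correction for length, and the position of the genes is a description across genes, which are not independent replicates. The filter of 10 counts also covered the disome libraries, which had the fewest counts. Genes with few disomes per footprint passed it only if they were abundant. The median and the percentiles therefore hold for this set of genes alone.

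**Figure D1:**
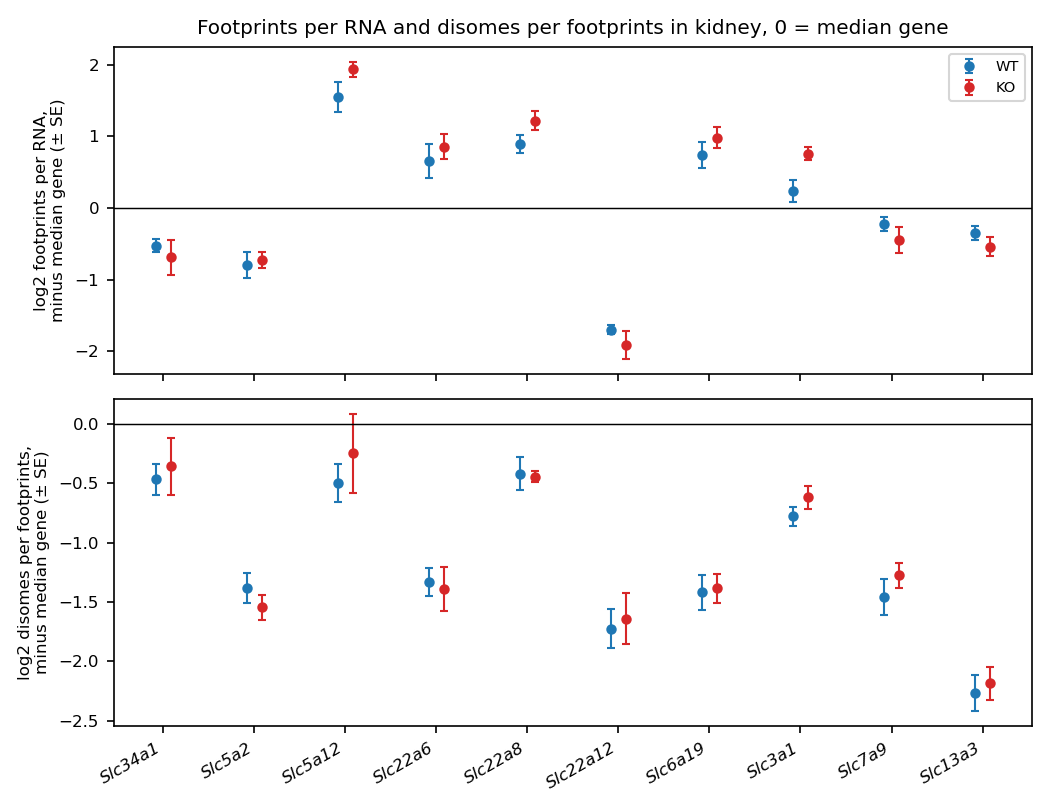
Log2 footprints per RNA (upper panel) and log2 disomes per footprints (lower panel) of the 10 members in kidney, each minus the median of 4443 genes (line at 0), as means of 3 WT (blue) and 3 KO (red) libraries with SE. Slc5a12 and Slc22a12 form the ends of the upper panel, and all members lie below 0 in the lower panel, Slc13a3 lowest.

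Brain served as the background tissue. The edgeR test called 10 members higher in WT kidney than in WT brain by RNA (28.3% of 88731 transcripts were) and 10 by footprints (35.0% of 82957), and DESeq2 called as many. Most members entered this test through their kidney counts alone, so these counts support nothing about the members: with at least 10 counts in every library 5 were left by RNA and 3 by footprints. Slc34a1 had 3, 7 and 3 counts in the WT brain RNA libraries, against a mean of 1930 CPM in WT kidney, and 2 to 4 footprints. Slc7a9 had no RNA count in any of the 6 brain libraries. With 3 counts per library as the floor, its RNA was at least 1362-fold higher in WT kidney, although 4 to 54 footprints per library were counted on it in brain. Slc5a12, Slc6a19 and Slc22a12 likewise had at most 24 counts in any brain RNA library and at most 9 in any brain Ribo-seq library.

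The organic anion transporters and the dicarboxylate carrier had a brain signal in both assays. Slc22a6 and Slc22a8 are also known from the choroid plexus, the epithelium that forms cerebrospinal fluid. Slc22a8 had 589, 599 and 704 RNA counts and 148, 62 and 236 footprints in the WT brain libraries, and was 23.7-fold (RNA) and 29.3-fold (footprints) higher in kidney. Slc22a6 had 213 to 236 RNA counts and 47 to 131 footprints in WT brain and was 112-fold and 55.1-fold higher in kidney. Slc13a3 had 776 to 869 RNA counts and 81 to 341 footprints, with kidney 34.7-fold and 17.3-fold higher.

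In Slc3a1 and Slc5a2 the assays parted. Slc3a1 had 1927, 1845 and 1897 RNA counts in WT brain, a level of 20.0 CPM, but 12, 6 and 5 footprints. Its RNA was 8.80-fold higher in kidney (log2 3.14, SE 0.18, edgeR adjusted p = 1.55e-07). Its footprints were 738-fold higher (log2 9.53, SE 0.26), a value that rests on these few brain counts. Slc3a1 footprints entered that test through their kidney counts alone, so no p-value is given for them. Slc5a2 had 303, 330 and 247 RNA counts in WT brain and 3, 0 and 2 footprints, and 8 of its 12 isoforms were at 0 in all 6 brain RNA libraries. Both genes overlap a neighbour on the opposite strand: 601 bases of the Slc3a1 transcript (26.5%) lie in exons of Prepl, and 597 bases of the Slc5a2 transcript (26.2%) in exons of BC017158. Slc22a12 shares 682 bases (30.6%) with Nrxn2 and Slc34a1 545 bases (13.7%) with Pfn3 in the same way. Slc22a12 had 4 to 13 RNA counts in the WT brain libraries. The paper names a directional kit for its RNA-seq libraries. Whether reads were counted by strand is not given in the sources used here, and without strand the reads of such partners cannot be told apart. The part of such reads in these counts was not tested.

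**Figure D2:**
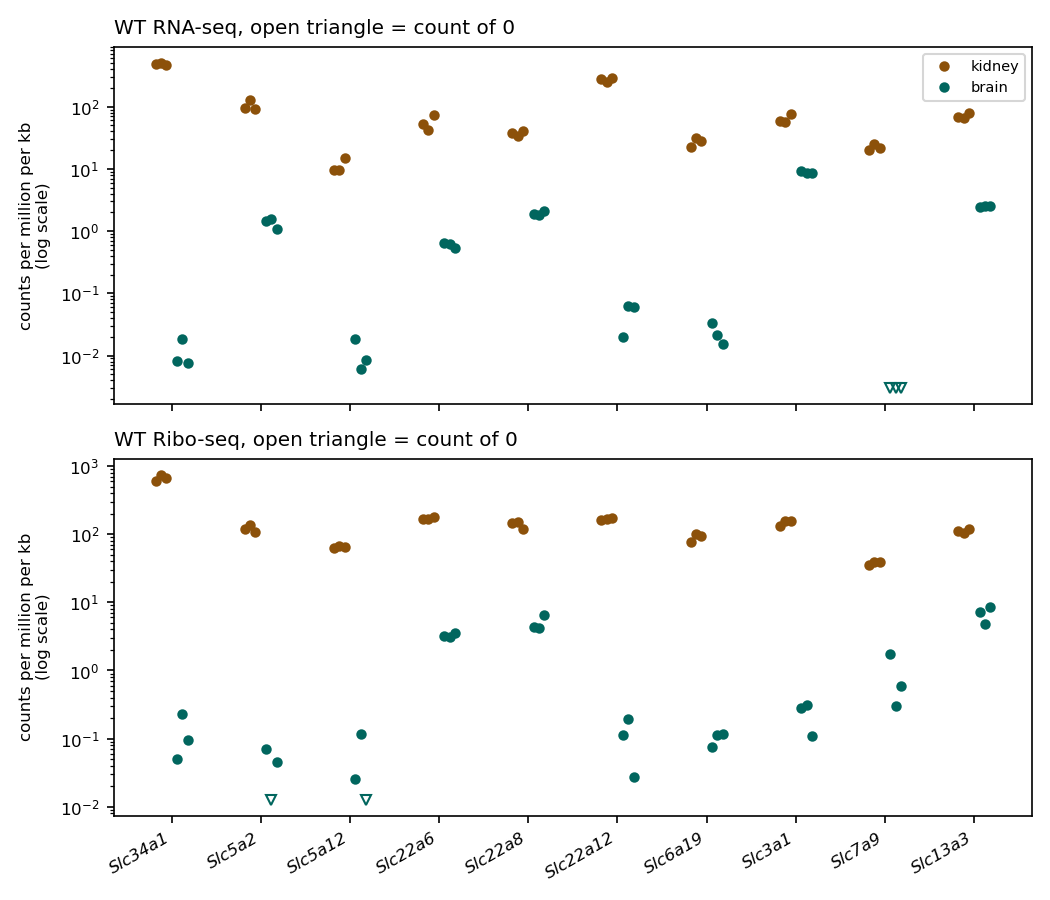
Levels of the 10 members in the 3 WT kidney (brown) and 3 WT brain (green) libraries in CPM per kb on a log scale, for RNA-seq (per kb of transcript) and Ribo-seq (per kb of coding sequence), with open triangles for counts of 0. Kidney lies above brain for every member, and Slc3a1 is near 10 CPM per kb in brain RNA but below 1 in brain footprints.

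The comparison of KO with WT kidney asks whether loss of Rpl41 changes the amount of these mRNAs, the ribosomes on them or the ribosome pairs on them. At the level of RNA, no member passed edgeR's quasi-likelihood test at an adjusted p of 0.05, where 0.00992% of 70545 transcripts did. DESeq2 called none of them either, and 2 members had an unadjusted p under 0.05 (16.8% of all transcripts did). The median log2 fold change of the members was 0.14, beside 0.12 for all genes (1 transcript each) and -0.03 for all transcripts. On library totals instead of TMM factors kidney RNA values moved by about -0.16, and the members' median became -0.022. The p-values here and below measure the spread between the 3 libraries of a group. The paper speaks of biological replicates, while the labels say only replicate.

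Slc34a1 RNA was 1954, 1988 and 1849 CPM in WT and 2179, 2592 and 2559 CPM in KO kidney, so the groups did not overlap, the one such member (10.1% of all transcripts had their 3 KO libraries above the 3 WT libraries). Its log2 fold change was 0.34 (SE 0.14, adjusted p = 0.294). Slc7a9 RNA was 39.3, 48.5 and 42.0 CPM in WT and 45.3, 67.9 and 62.8 CPM in KO (log2 0.44, SE 0.18, adjusted p = 0.292), with the first KO library inside the WT range. Slc13a3 differed by 0.31 (SE 0.15, adjusted p = 0.310). In the KO libraries these 3 genes were highest in numbers 2 and 3, the libraries with more mitochondrial rRNA: without both of them the values of Slc34a1, Slc7a9 and Slc13a3 were 0.18, 0.07 and 0.11. The 15 proximal tubule markers summed to 14230 to 17870 CPM in WT and 18400 to 22960 CPM in KO RNA. Single markers went both ways, from a log2 fold change of -0.46 for Anpep to 0.66 for Pck1. Cubn stood at -0.38 and Kap at 0.49, so the sum does not describe each marker. Their part in the member values was not tested. Without KO library 1 instead, Slc7a9 passed the test (0.60, adjusted p = 0.032).

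The other members had smaller RNA differences or ones that rested on single libraries. Slc6a19 (0.21), Slc5a2 (0.21), Slc22a6 (0.07), Slc22a8 (-0.03), Slc3a1 (-0.09), Slc22a12 (-0.16) and Slc5a12 (-0.26) had adjusted p-values between 0.461 and 0.918. Slc3a1 RNA, for example, was 133, 128 and 173 CPM in WT and 129, 130 and 147 CPM in KO kidney, and the groups overlapped. The value of Slc5a12 was -0.03 and that of Slc22a6 0.31 without WT library 3, that of Slc5a2 was 0.38 without WT library 2, and that of Slc22a12 turned to 0.09 without KO libraries 2 and 3.

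The RNA libraries also differed in the count of short isoforms that end upstream, relative to the full transcript. Slc34a1 has a 928-base isoform that ends 3443 bp upstream of the full gene end, and its count was 17.3%, 12.7% and 24.5% of that of the full transcript in WT RNA, 13.9% in KO library 1 and 5.65% and 6.53% in KO libraries 2 and 3. For Slc22a12 the corresponding share was 31.7% to 42.0% in WT, 34.9% in KO library 1 and 17.6% and 21.3% in the other KO libraries. Slc5a12 went the other way, with 18.3% and 17.0% in KO libraries 2 and 3 against 6.74% to 13.9% elsewhere. Shares from fewer counts were also lower there in Slc5a2 (0.081% and 0.47% against 1.47% to 4.26%) and Slc7a9 (0.31% and 0.23% against 1.61% to 5.31%). The same held for Slc6a19, at 0.085% and 0.42% against 0.59% to 2.03%. In Slc13a3 and Slc22a8 the shares of these 2 libraries overlapped those of the others. In Ribo-seq the same shares were even across all 6 libraries, 55.1% to 57.2% for Slc34a1 and 44.1% to 46.7% for Slc22a12. Use of the isoforms and coverage along the transcript cannot be told apart in these counts, and the part of this difference in the RNA values was not tested.

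**Figure D3:**
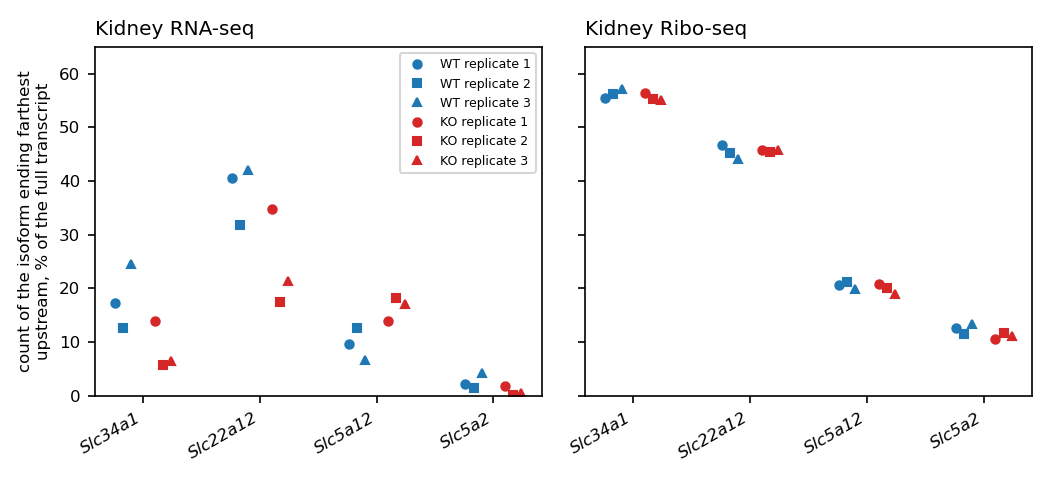
Count of the isoform that ends farthest upstream, as a percentage of the count of the full transcript, for 4 members in each kidney RNA-seq (left) and Ribo-seq (right) library, WT in blue and KO in red, with a symbol for each replicate number. In RNA-seq, KO replicates 2 and 3 lie apart from the other 4 libraries for Slc34a1, Slc22a12 and Slc5a12, and for Slc5a2 at much lower shares. The Ribo-seq libraries coincide.

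At the level of footprints, 9 of 10 members had higher mean levels in KO than in WT kidney and Slc22a12 was lower, but none passed the edgeR test, where 7.76% of 75266 transcripts did. By DESeq2, Slc6a19 and Slc3a1 passed, but the share of all transcripts that passed by DESeq2 is not given here. An unadjusted p under 0.05 was found for 7 members (25.3% of all transcripts). The 3 KO libraries were all above the 3 WT libraries in 7 members (15.5% of all transcripts) and all below them in Slc22a12 (14.3%). The median log2 fold change of the members was 0.27, beside -0.04 for all genes and -0.01 for all transcripts.

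Of the amino acid carriers, Slc6a19 and Slc3a1 had the largest differences among the 10 members. Slc6a19 footprints were 147, 193 and 183 CPM in WT and 281, 227 and 221 CPM in KO kidney. The groups did not overlap, and the log2 fold change was 0.48 (SE 0.15, adjusted p = 0.062). Slc3a1 footprints were 275, 322 and 325 CPM in WT and 460, 392 and 414 CPM in KO, again without overlap (log2 0.46, SE 0.14, adjusted p = 0.060). Slc7a9, the partner subunit of Slc3a1, was 52.2, 56.7 and 58.2 CPM in WT and 64.3, 65.3 and 65.8 CPM in KO (log2 0.23, SE 0.10, adjusted p = 0.189). Slc6a19 and Slc3a1 were the members nearest to the threshold: both passed also when 1 transcript per gene was fitted (adjusted p = 0.0499 and 0.0399), and neither did in any fit without 1 library (lowest adjusted p = 0.073 and 0.067).

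Slc22a12, the urate exchanger, was the exception. Its footprints were 270, 280 and 284 CPM in WT and 253, 192 and 207 CPM in KO kidney, with all KO libraries below all WT libraries (log2 -0.36, SE 0.14, adjusted p = 0.123). The first KO library, the shallowest, was the closest to WT, and without it the value was -0.47 and passed the test (adjusted p = 0.036). On library totals instead of TMM scaling it passed as well (-0.44, adjusted p = 0.030), while that scaling moved footprint values by about -0.07.

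The basolateral organic anion transporters had similar values to each other. Slc22a6 was 272, 271 and 295 CPM in WT and 424, 298 and 340 CPM in KO (log2 0.34, SE 0.15, adjusted p = 0.174). Slc22a8 was 234, 245 and 195 CPM in WT and 289, 274 and 268 CPM in KO (log2 0.30, SE 0.13, adjusted p = 0.172). Neither group of libraries overlapped, and KO library 1 was highest in both genes.

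Among the sodium-coupled carriers, Slc34a1 showed the widest spread between KO libraries. Its footprints were 1168, 1429 and 1283 CPM in WT and 2030, 1219 and 1305 CPM in KO kidney, so the log2 difference of 0.23 (SE 0.21, adjusted p = 0.524) came from the first KO library alone, and without it the value was -0.03. Slc5a2 was 238, 274 and 215 CPM in WT and 340, 276 and 289 CPM in KO (log2 0.32, SE 0.14, adjusted p = 0.183). Slc5a12 (0.17, SE 0.11) and Slc13a3 (0.13, SE 0.13) had the smallest differences, with adjusted p-values of 0.358 and 0.554.

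**Figure D4:**
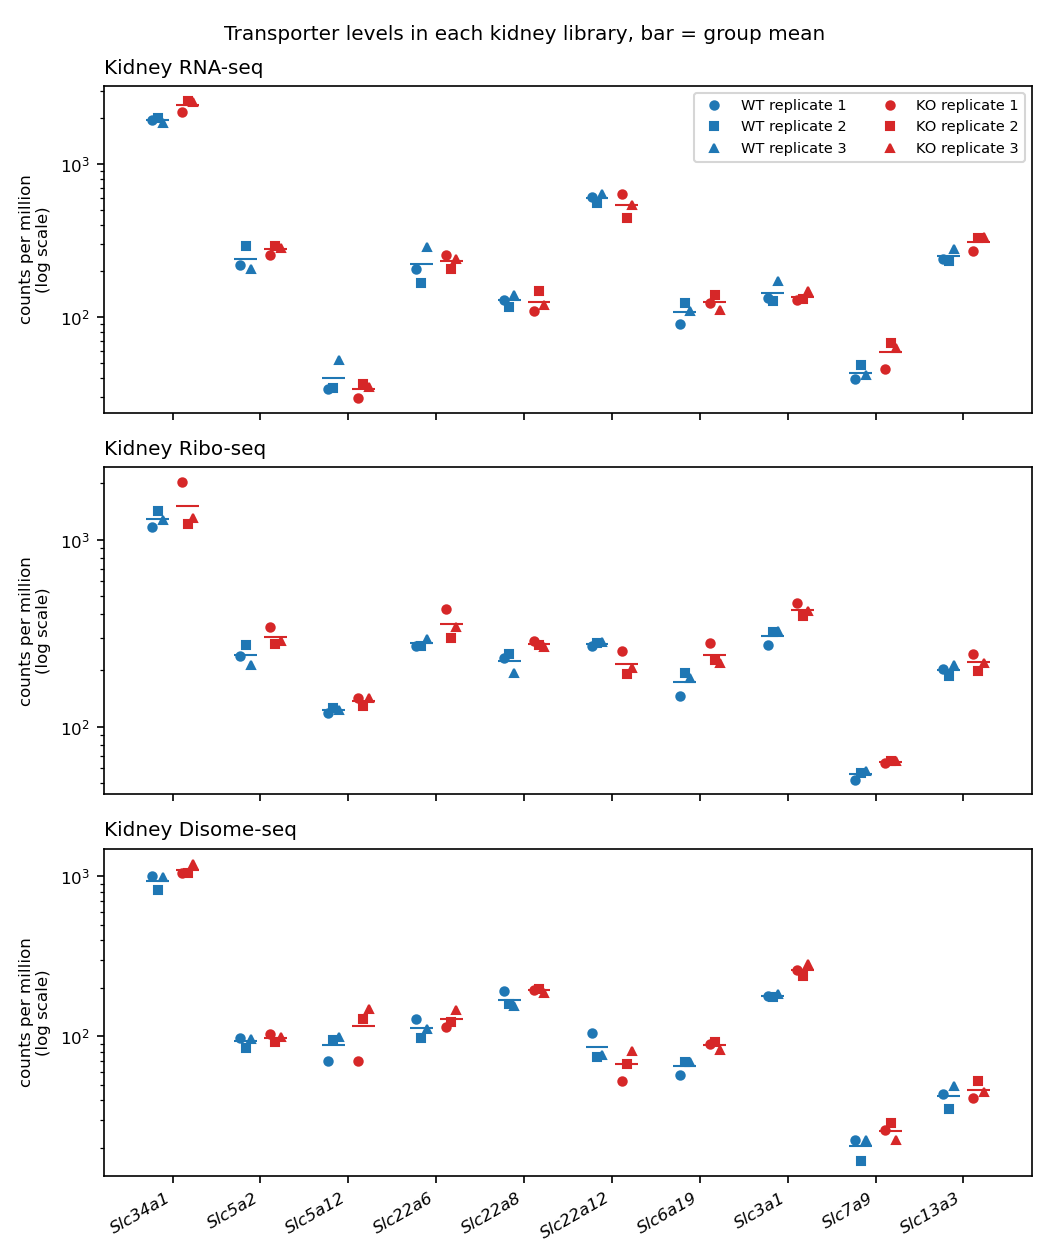
CPM of the 10 members in each kidney library on a log scale, for RNA-seq, Ribo-seq and disome-seq, WT in blue and KO in red, with a symbol for each replicate number and a bar at the group mean. In Ribo-seq, KO replicate 1 (red circle) is the highest KO library for Slc34a1, Slc22a6, Slc6a19 and Slc3a1, and for Slc22a12 the KO libraries lie below WT.

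In disome-seq the signs were those of Ribo-seq in all 10 members, from libraries with fewer counts. No member passed the edgeR test, where 0.201% of 34754 transcripts did. DESeq2 called Slc3a1 alone, again without a share of all transcripts to set beside it. The median was 0.21, beside -0.01 for all genes. An unadjusted p under 0.05 was found for 3 members (10.8% of all transcripts). Slc3a1 disomes were 179, 177 and 183 CPM in WT and 261, 240 and 283 CPM in KO kidney (log2 0.54, SE 0.15, adjusted p = 0.162). Slc6a19 disomes were 57.7, 69.0 and 68.9 CPM in WT and 90.1, 92.5 and 81.9 CPM in KO (log2 0.45, SE 0.16, adjusted p = 0.290). In these genes and in Slc34a1 no KO library reached down to the WT range, as in 8.07% of all transcripts. Slc22a12 disomes were 106, 74.8 and 76.1 CPM in WT and 52.9, 67.1 and 80.9 CPM in KO (log2 -0.39, SE 0.19, adjusted p = 0.451), with overlap between the groups, and the value was -0.19 without WT library 1.

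Disomes were also set against footprints in one model. The term for the change of disomes beyond that of footprints passed for no member and for 0.0% of 67065 transcripts, by edgeR or, for the members, by DESeq2, and no member had an unadjusted p under 0.05. The values ran from -0.20 (Slc5a2, SE 0.21) to 0.24 (Slc5a12, SE 0.26), with a median of 0.01. That no term passed does not show that the ratios were equal. The ratio itself was -2.26 in both genotypes for Slc13a3, -1.38 in WT and -1.61 in KO kidney for Slc5a2, and -0.49 and -0.32 for Slc5a12.

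Translation efficiency (TE), the footprint level relative to RNA, was tested in a model of both assays, by the term for genotype within assay. No member passed it, nor did any of 89685 transcripts (0.0%), and DESeq2 called no member. The paper used another tool, RiboDiff, and reports that TE changed significantly in many kidney and brain transcripts. RiboDiff was not run here. The largest value was that of Slc3a1, 0.54 (SE 0.19, adjusted p = 0.176), the one member with an unadjusted p under 0.05, as 18.9% of all transcripts had. Slc5a12 (0.42), Slc22a8 (0.33), Slc6a19 (0.26) and Slc22a6 (0.25) were also positive. Slc22a12 (-0.21), Slc7a9 (-0.21), Slc13a3 (-0.18) and Slc34a1 (-0.11) were negative. The median of the members was 0.18, above -0.14 for all genes and 0.07 for all transcripts. The size of this gap depended on which of the 2 was taken and was not tested. Without WT kidney RNA library 2 the median of the members was 0.03.

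**Figure D5:**
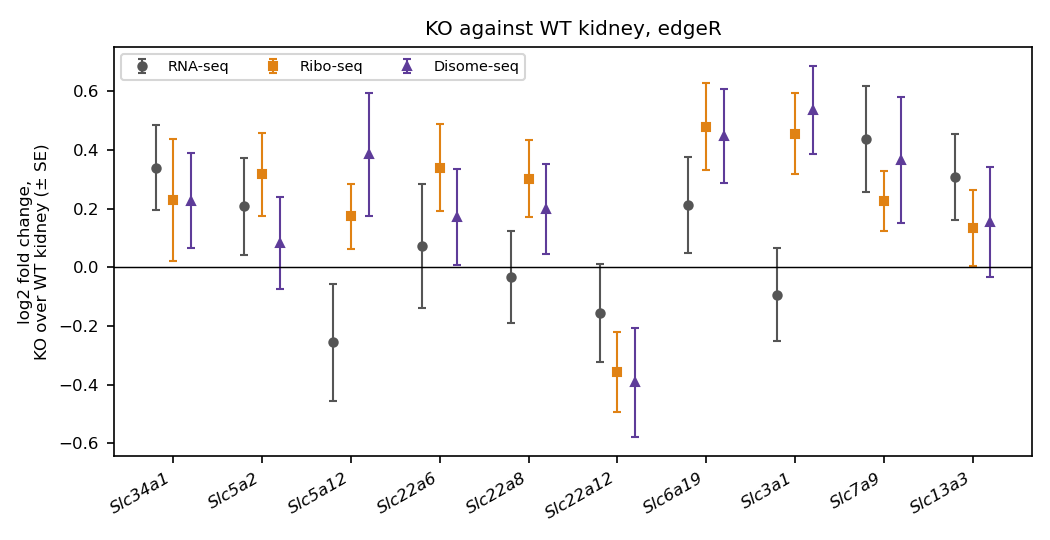
Log2 fold change of KO over WT kidney with SE for the 10 members in RNA-seq (grey circles), Ribo-seq (orange squares) and disome-seq (purple triangles), from edgeR with 3 libraries per group. No member passed the test; 9 members lie above 0 in both footprint assays, and Slc22a12 lies below 0 in all 3 assays (in RNA not without KO libraries 2 and 3).

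In brain, where 6 members had enough counts for the RNA test and 4 for the footprint test, none passed by edgeR or DESeq2 (0.0134% of 89237 and 0.0345% of 81112 transcripts passed edgeR). Slc22a8 RNA had the one unadjusted p under 0.05 in brain (3.46% of all transcripts had one by RNA and 12.6% by footprints). It stood at 6.49, 6.36 and 7.15 CPM in WT and 4.79, 4.99 and 5.17 CPM in KO (log2 -0.42, SE 0.12, adjusted p = 0.898). All KO libraries lay below the WT ones, and the share of all brain transcripts that did so is not given. The tissue by genotype term, which sets the KO effect in kidney against that in brain, was read for the members tested in both tissues, 6 by RNA and 4 by footprints. None passed by edgeR or DESeq2 (0.00108% of 92865 and 0.0767% of 88666 transcripts passed edgeR). An unadjusted p under 0.05 was found for 1 of them, Slc22a6 footprints, 0.48 higher in kidney (SE 0.20, adjusted p = 0.596). By footprints 7.63% of all transcripts had such a p.

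The proteins that work with these carriers were followed from a list of 13 partners and regulators. None passed the test in kidney by edgeR in any assay. Cltrn (collectrin), needed for Slc6a19 to reach the brush border, had an RNA value of 0.47 (SE 0.20, adjusted p = 0.293), and a footprint value of 0.05. Pdzk1 and Slc9a3r1 (NHERF1), scaffolds that anchor Slc34a1, had 0.11 and -0.03 by footprints. Hnf4a, a regulator of proximal tubule genes, had -0.04, and the adjusted p-values of these 3 genes were above 0.05.

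Other carriers of the same cells did include calls by footprints. Of 31 other apical tubule transporters, 8 rose and none fell, against 4.75% of all transcripts that rose. The largest rises were those of Slc26a6, an apical anion exchanger (log2 0.91, SE 0.16, adjusted p = 0.0096), and Slc9a3 (NHE3), the main apical sodium-hydrogen exchanger (0.64, SE 0.11, adjusted p = 0.0088). Of 18 genes listed as other basolateral transporters, 3 rose and none fell. They were led by the sodium-bicarbonate cotransporter Slc4a4 and the organic anion transporter Slco1a6 (0.54 each, adjusted p = 0.031 and 0.035). That list also holds Slc25a10, a mitochondrial dicarboxylate carrier. The medians of these lists were 0.30 and 0.22, beside 0.27 for the 10 members. None of these 49 genes passed by RNA, where 0.00992% of 70545 transcripts did, or by disomes. The RNA values of the named genes were not near their footprint values throughout. They were 0.53 (SE 0.26) for Slc26a6, -0.79 (SE 0.50) for Slc9a3, 1.90 (SE 0.50) for Slc4a4 and 0.13 (SE 0.17) for Slco1a6.

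Marker lists of the cell types around these cells moved by footprints too. Over all transcripts 4.75% rose and 3.01% fell by footprints, and the counts of these short lists stand beside those shares. Of 15 proximal tubule markers 3 rose, the endocytic receptor genes Lrp2 (0.62) and Cubn (0.61) foremost, and the list summed to 7119 to 8567 CPM in WT and 8636 to 11540 CPM in KO kidney. Of 5 thick ascending limb genes 2 rose, Egf (0.91) and Slc12a1 (0.82), and the list summed to 1375 to 1566 CPM in WT and 2128 to 2369 CPM in KO. In RNA that list ran the other way, at 1390 to 1834 CPM in WT and 1119 to 1390 CPM in KO, with no call. Of 5 immune genes 3 rose, with Ptprc (0.80) and Cd74 (0.63) highest, and the list summed to 88.8 to 123 CPM in WT and 152 to 171 CPM in KO. Pecam1 (endothelium, 0.57), Pdgfrb (fibroblast, 0.71) and Vcam1 (tubule injury, 0.91) rose as 1 gene of their lists each, and in the distal convoluted tubule list Trpm6 rose (0.83) and Pvalb fell (-0.64). Podocyte, collecting duct and blood lists held no call, and all 4 pancreatic genes tested fell, with log2 fold changes of -5.61 for Amy2a5 and -5.49 for Prss2. No gene of these lists passed by RNA, and by disomes the podocyte gene Nphs1 alone fell (-2.45, SE 0.51, adjusted p = 0.043), as 0.132% of transcripts did. The part of these shifts in the member values was not tested.

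Across the 18 kidney libraries, with each assay centred on its own mean, P4hb (Pearson r = 0.91), Timp3 (0.89) and Cat (0.86) were among the 5 genes whose levels were most like the mean of the 10 members, out of 4654 genes with at least 10 counts in every library. These values describe libraries of 3 assays that share genotypes and depths. Among the members themselves, 9 correlated with their mean (which each enters) at 0.54 for Slc5a12 to 0.82 for Slc34a1, and Slc22a12 at -0.23.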

How the data were processed

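The study's methods describe nuclease-treated tissue lysates for both footprint assays and size selection of the fragments. Reads were trimmed, cleared of rRNA and aligned with STAR to the GRCm38.p6 transcriptome and mm10, with multimapping allowed. featureCounts is named for human transcripts, while the counter of the mouse table, its strand setting and the region counted are not given in the sources used here. The authors deposited raw counts per transcript, without normalization. Reads shared by isoforms may enter several of them, so transcripts are not independent. Footprints were divided by coding length on the premise that they fall there. Of 142604 transcripts 141374 matched GENCODE M21, and 30 columns named by sample titles were used. The human table's 28 columns carry mouse titles, could not be assigned to samples and were not used, so the 44 HEK293T samples were not analysed here.

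All transcripts were fitted with edgeR 4.0.16 (filterByExpr, TMM, quasi-likelihood F-test, genotype as the term, Benjamini-Hochberg over all transcripts tested, threshold 0.05) in R 4.3.3. DESeq2 1.42.0 was an alternative. The scripts were tested on simulated data. Each SE was obtained by dividing the fold change (log2) by the root of its F. Counts of 3 or fewer were the floor, covering counting error only. The transcript with the longest protein stood for a gene. Named genes were the 10 members, fixed partners and, per list and comparison, up to 2 called genes with the largest rise and 2 with the largest fall. The members, lists and tests were chosen with earlier results of these data known. Replicate numbers were checked by correlating same-numbered deviations of WT and KO libraries. Every pair exceeded 0.1 in disome-seq (0.132 to 0.207), but not in kidney RNA-seq (-0.223 to 0.337) or Ribo-seq (-0.141 to 0.098). Correlations between different numbers are not given here, so these values do not settle whether WT and KO libraries were paired. The main tests were unpaired, and fits with the replicate number as a block are given below. Between assays of the same number, every WT pair exceeded 0.1 (RNA with footprints 0.143 to 0.211, footprints with disomes 0.168 to 0.415), but not every KO pair (0.091 to 0.135 and 0.099 to 0.280). Some genes and sequences are not reported here.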

Additional observations from a re-analysis of the deposited data

How the results depend on the processing

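Alternatives were another tool, scaling, filter, 1 transcript per gene, thinning of Ribo-seq counts, a replicate block and leaving out libraries. The kidney footprint count of 0 members became 2 with 1 transcript per gene (Slc6a19, Slc3a1), 2 with DESeq2 (Slc6a19, Slc3a1), 4 with a minimum of 1 count in any library (Slc5a2, Slc22a6, Slc6a19, Slc3a1) and 2 on library totals (Slc22a12, Slc3a1). Without one replicate it was 0 to 1 (1 without KO replicate 1), and 0 to 1 for kidney RNA (Slc7a9, without KO replicate 1). The disome count became 1 with DESeq2 (Slc3a1). The share of all transcripts that passed is not given for these alternatives. Whether the members gained more calls than other transcripts is therefore not known. With at least 10 counts in every library, members called in kidney against brain went from 10 to 5 by RNA and 3 by footprints, because the other members were no longer tested. Medians moved for kidney RNA from 0.14 to 0.0073 with 1 transcript per gene and -0.022 on library totals, and for TE from 0.18 to 0.32 with 1 transcript per gene; the cause was not tested. Without one replicate, medians ranged from 0.062 to 0.16 (kidney RNA), 0.22 to 0.34 (footprints), 0.15 to 0.29 (disomes), 0.032 to 0.24 (TE) and -0.10 to 0.14 (disomes against footprints), and in brain from 0.087 to 0.26 (RNA) and -0.20 to 0.025 (footprints); counts elsewhere stayed at 0, and at 10 for kidney against brain. With the replicate number as a block no count of members changed: 0 passed in kidney RNA, footprints and disomes. With the numbers paired also across assays, 0 passed for TE (median 0.15) and 0 for disomes against footprints (median 0.02). Of 1284 single-member values under alternatives, 13 passed a test that they had not passed before, 24 moved otherwise, and no called value reversed. What could be detected was limited in kidney RNA, TE, disomes and disomes against footprints, where 7, 0, 70 and 0 transcripts passed in all, so the absence of a call there does not show that a member did not differ. In simulated kidney footprints, 74% of 100 transcripts changed by a log2 of 1 were called, and so were 43 of 75066 unchanged ones. Smaller changes, the size of the member values, were not simulated. The absence of a footprint call therefore does not show that a member did not differ either.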
